A study of Homo sapiens and Mus musculus with 7 samples.

Results

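The genes described here are 10 transcripts that cells tend to raise when growth factor signalling is low: KLF9, PNRC1, KLHL24, DDIT4, TXNIP, CCNG2, PIK3IP1, IRS2, PDK4 and TSC22D3. They were chosen by symbol, because KLF9, PNRC1, KLHL24 and DDIT4 were lower on both HeyA8 knockdown arrays than on the control array. The HeyA8 differences of these 4 genes are therefore given as a description. All 10 genes had probe sets on both platforms, 31 probe sets among 19773 human genes with a probe set of 1 symbol and 28 among 18193 mouse genes. The remaining 6 genes were added as members of the same programmes, with earlier results of these arrays known.

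FOXO transcription factors act downstream of insulin and growth factor receptors. When the kinase AKT is active it phosphorylates FOXO proteins and keeps them out of the nucleus, and when signalling falls FOXO proteins enter the nucleus and switch on genes of growth arrest, fasting metabolism and signal attenuation. The glucocorticoid receptor is a hormone-activated transcription factor that shares several of these targets, among them KLF9, DDIT4 and TSC22D3, and in the liver both factors take part in the fasting response.

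Total RNA was measured on 7 Affymetrix arrays, 1 for each sample, as MAS5 signal on a linear scale. HeyA8, an ovarian cancer line, was measured with a pLKO vector control, with a stable FAS hairpin named shRNA4 and with another named shRNA6, and HepG2, a liver cancer line, with the pLKO control and with shRNA6. Liver tissue came from wild-type and Fas knockout C57/BL6 mice, male and 2 months old, with 1 sample of each. The sources used here do not give the clonality of the knockdown lines, the design of the mouse allele or any pooling of animals. FAS is the death receptor CD95, and although the series title speaks of a knock-out in human cells, the hairpins lower its transcript and leave the gene in place. With a single array in each of the 7 groups, a ratio to a control cannot be set against a spread between replicates, and this limits its precision. The HeyA8 hairpins share 1 control array.

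The labels could be checked on FAS and on marker genes. The most intense FAS probe set retained 56.3% of its control signal with shRNA4 and 40.7% with shRNA6 in the ovarian line, 58.1% in HepG2 and 30.3% in the knockout tissue. All 8 hepatocyte markers were above the array median on both HepG2 arrays. On the HeyA8 arrays at most 1 of the 8 was, and all 5 mesenchymal markers were above the median there. That count is not particular to HeyA8, since 4 (pLKO) and 3 (shRNA6) of the 5 were above the median in HepG2. On both mouse liver arrays all 5 were. The summed signal of the 5 was 61588 on the HeyA8 control array and 4167 on the HepG2 control array. Of the 4 epithelial markers 2 or 3 were above the median on each HeyA8 array, with CDH1 at 2.48 to 13.4 and KRT18 at 17240 to 20386. In mouse liver all 6 hepatocyte markers measured were above the median on both arrays.

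Of the 10 genes, 9 were kept in each HeyA8 comparison, 8 in the HepG2 pair and 9 in the liver pair, where kept means a signal above the median of at least 1 of the compared arrays. PDK4 was below the median on all 5 human arrays, IRS2 on both HepG2 arrays and Pik3ip1 on both mouse arrays. Gene differences are log2 ratios of signal plus a pseudocount of 12.6 in human and 20.5 in mouse, which understates the differences of dim genes, and a gene is represented by its most intense probe set.

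The stretches before the start sites of the human genes were searched for the letters that these factors are known to prefer. Of the genes searched, 4 were chosen for lower HeyA8 signals and 6 were added as members of the same programmes. Sequences are from RefSeq (GRCh38.p14), 250 bases up to the start site, and all 10 genes matched, with 15 annotated starts. On both strands the search covered GTAAACA for FOXO, the inverted repeat GNACA and TGTNC with any 3 bases between for the glucocorticoid receptor, CACGTG for E-box factors such as the glucose-responsive MondoA, and TGACGTCA for cAMP-responsive factors. The windows of TXNIP, TSC22D3 and CCNG2 that held a match are printed with the matched letters in capitals. Those of DDIT4 and PNRC1, from the choosing set, held none and are printed for comparison.

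TXNIP (chr1:145996580-145996829, minus strand): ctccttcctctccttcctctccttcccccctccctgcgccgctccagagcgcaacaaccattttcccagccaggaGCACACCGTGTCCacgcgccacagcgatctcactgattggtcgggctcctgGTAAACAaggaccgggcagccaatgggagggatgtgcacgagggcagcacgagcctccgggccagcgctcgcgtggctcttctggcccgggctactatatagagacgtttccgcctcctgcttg
TSC22D3 (chrX:107717063-107717312, minus strand): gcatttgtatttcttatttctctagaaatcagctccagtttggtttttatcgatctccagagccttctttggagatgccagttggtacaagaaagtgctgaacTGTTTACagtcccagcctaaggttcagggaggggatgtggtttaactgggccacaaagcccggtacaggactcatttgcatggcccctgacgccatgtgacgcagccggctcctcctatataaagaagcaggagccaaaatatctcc
CCNG2 (chr4:77156957-77157206, plus strand): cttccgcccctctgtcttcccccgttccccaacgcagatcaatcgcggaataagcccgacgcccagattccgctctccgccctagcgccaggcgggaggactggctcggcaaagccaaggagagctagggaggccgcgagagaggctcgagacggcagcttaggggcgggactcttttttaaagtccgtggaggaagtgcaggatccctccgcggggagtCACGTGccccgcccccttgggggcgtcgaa
DDIT4 (chr10:72273674-72273923, plus strand): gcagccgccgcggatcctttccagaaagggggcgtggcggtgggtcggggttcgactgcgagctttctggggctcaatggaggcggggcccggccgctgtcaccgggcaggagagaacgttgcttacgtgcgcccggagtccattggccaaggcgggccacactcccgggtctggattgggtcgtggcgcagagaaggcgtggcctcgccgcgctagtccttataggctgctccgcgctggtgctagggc
PNRC1 (chr6:89080501-89080750, plus strand): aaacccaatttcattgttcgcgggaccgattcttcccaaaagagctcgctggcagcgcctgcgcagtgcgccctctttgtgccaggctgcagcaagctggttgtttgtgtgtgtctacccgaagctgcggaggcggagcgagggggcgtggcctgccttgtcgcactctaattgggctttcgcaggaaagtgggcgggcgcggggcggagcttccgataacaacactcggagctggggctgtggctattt

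In the TXNIP window the glucocorticoid receptor letters lie at positions -175 to -163, counted from the start at 0, and the FOXO letters at -124 to -118. The FOXO letters of TSC22D3 (TGTTTAC, the reverse complement) lie at -147 to -141 of 1 of its 4 starts, and the E-box of CCNG2 at -30 to -25. The FOXO letters were found in 2 of 15 starts of these genes and in 2.98% of all 35116 starts, the glucocorticoid receptor letters in 1 and in 0.327%, CACGTG in 1 and in 6.34%, and TGACGTCA in 0 and in 1.65%. None of the 4 genes that defined the set, KLF9, PNRC1, KLHL24 and DDIT4, held any of the 4 patterns in these windows. TXNIP, TSC22D3 and CCNG2, which held the matches, were added as members of the same programmes, so the shares are not read as a result. A match is a description of letters, and its absence says only that they are not in this window.

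In HeyA8 all 9 kept genes had lower signals with both hairpins than in the control. KLF9, a zinc finger transcription factor induced by glucocorticoids and thyroid hormone, had a control signal of 218, and its signal was 25.7 under shRNA4 and 85.2 under shRNA6. The shRNA4 array was the lowest and was the only human array on which this KLF9 probe set was below the array median. The log2 ratios were -2.59 and -1.24. Its only other probe set above the median, at 189, 72.8 and 95.5, gave -1.24 and -0.90, so the distance between the hairpins was smaller there.

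PNRC1, a proline-rich coactivator of nuclear receptors, was measured by 1 probe set. Its control signal was 1902, that under shRNA4 889 and that under shRNA6 689, which gives log2 ratios of -1.09 and -1.45. Its order of the hairpins was the opposite of that of KLF9. KLHL24, a substrate adaptor of the cullin ubiquitin ligases, had a control signal of 601 and hairpin signals of 202 (shRNA4) and 278 (shRNA6), giving log2 ratios of -1.52 and -1.08. Another KLHL24 probe set gave -1.60 and -1.10 and a further one -0.97 and -1.01. The KLHL24 probe set marked as cross-hybridising, the most intense of its 5, gave 0.077 and -0.73, so with shRNA4 it was not lower.

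DDIT4, also called REDD1, is a stress-induced inhibitor of the growth-promoting mTOR kinase complex. From a control signal of 1665 it was at 587 (shRNA4) and 911 (shRNA6), giving log2 ratios of -1.48 and -0.86. Of the 4 choosing genes it had the smallest difference with shRNA6. The next gene outside the choosing set was CCNG2, an unconventional cyclin linked to growth arrest, with a control signal of 1940 and hairpin signals of 757 (shRNA4) and 1210 (shRNA6), giving log2 ratios of -1.34 and -0.68. With shRNA4 CCNG2 was lower than PNRC1, and with shRNA6 it lay closer to 0 than all 4 choosing genes. The other 3 kept CCNG2 probe sets gave -1.09, -1.22 and -2.10 with shRNA4 and -0.87, -1.13 and -0.30 with shRNA6.

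The remaining genes differed less in HeyA8. TXNIP, an arrestin-like protein that binds thioredoxin and limits glucose uptake, was at 1200, 1014 and 870 on the control, shRNA4 and shRNA6 arrays, giving log2 ratios of -0.24 and -0.46. Another TXNIP probe set gave -0.42 and -0.49, and the dimmest gave -0.44 and -0.38. IRS2, an adaptor that carries the insulin signal from its receptor, was at 2384, 2114 and 1691 in the same order, log2 ratios of -0.17 and -0.49. TSC22D3, the glucocorticoid-induced leucine zipper, was at 433, 377 and 302, log2 ratios of -0.20 and -0.50. The TSC22D3 probe set marked as cross-hybridising, dim at 64.6, 16.7 and 65.2, gave -1.40 and 0.013. By their most intense probe sets these 3 genes were lower with shRNA6 than with shRNA4. PIK3IP1, a membrane protein that restrains phosphoinositide 3-kinase, was dim, at 89.6, 50.8 and 80.9, log2 ratios of -0.69 and -0.13, while another of its probe sets gave -0.84 and -2.88. PDK4, the kinase that turns down pyruvate dehydrogenase, was at 46.7, 31.8 and 29.8 and was not kept.

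**Figure D1:**
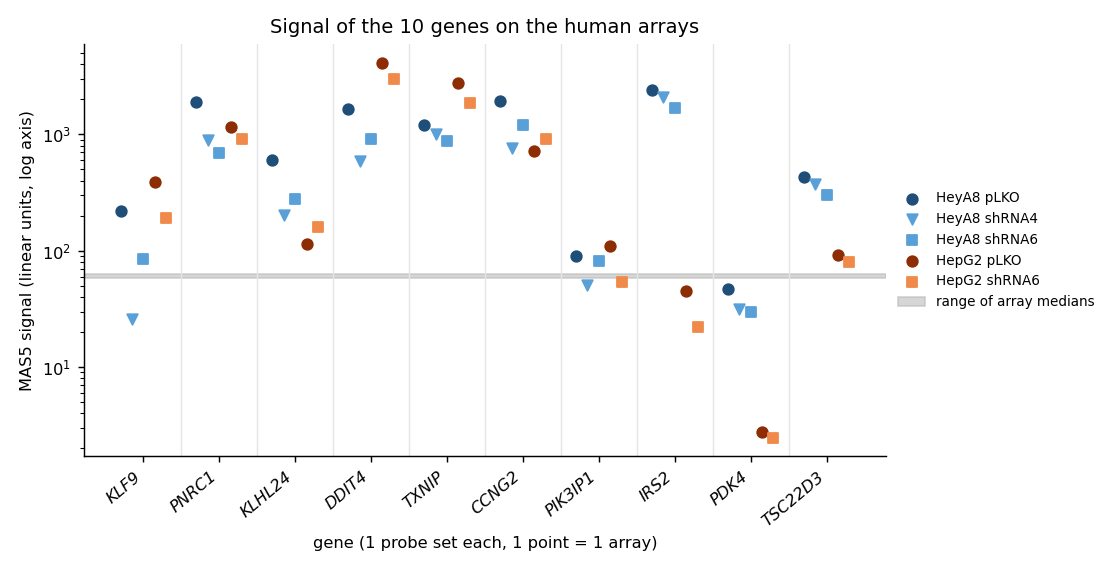
MAS5 signal (log axis) of the 10 genes on the 5 human arrays, 1 point an array. Each gene is shown by its most intense probe set not marked as cross-hybridising. The grey band spans the array medians: PDK4 lies under it on every array and IRS2 on both HepG2 arrays, whereas KLF9 is at 218 in the HeyA8 control and at 25.7 with shRNA4.

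By size, 5 of 9 kept genes were at least 2-fold lower with shRNA4 (KLF9, PNRC1, KLHL24, DDIT4 and CCNG2), beside 2.38% of 12175 kept genes. With shRNA6 3 of 9 were (KLF9, PNRC1 and KLHL24), beside 2.21% of 12152 genes, and the same 3 were at least 2-fold lower with both, beside 0.715%. At 1.5-fold the counts were 6 beside 6.73% and 5 beside 6.23%, and 5 with both hairpins beside 2.58%. None of the 9 was at least 2-fold higher, beside 2.37% with shRNA4 and 2.02% with shRNA6, or at least 1.5-fold higher, beside 6.21% and 4.67%. All 9 were below 0 with each hairpin, beside 46.6% and 48.8% of genes, and below 0 with both, beside 32.7%. These counts rest on the contrast that chose the set, and nothing is read from them. The members' median was -1.09 with shRNA4 and -0.68 with shRNA6, while that of all kept genes was 0.026 and 0.0071.

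Some of these genes differed between the hairpin arrays by more than is common. Across 7673 bright genes, meaning those above the 75th percentile of either hairpin array, the log2 difference of shRNA6 minus shRNA4 had an SD of 0.28, and across all 12242 kept genes it was 0.48. DDIT4 was higher with shRNA6 by 0.62, CCNG2 by 0.67 and KLF9 by 1.35. The other probe sets above the median did not all share this size: those of CCNG2 gave 0.22, 0.090 and 1.80 and that of KLF9 0.34. PNRC1 gave -0.36. For TXNIP the difference was -0.22, for IRS2 -0.32 and for TSC22D3 -0.31. With 1 array for each hairpin these differences were not tested. FAS itself was lower with shRNA6 than with shRNA4, a log2 difference of -0.46.

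HepG2 gave comparisons that the choice of KLF9, PNRC1, KLHL24 and DDIT4 did not use, with shRNA6 as the hairpin. The remaining genes were added with earlier results of these arrays known, so for them HepG2 is not independent of the choice. KLF9 had signals of 389 (control) and 193 (shRNA6), a log2 ratio of -0.97, and the probe set next in intensity, at 337 and 167, gave -0.96. TXNIP was at 2742 and 1870, a log2 ratio of -0.55, and its other probe sets gave -0.54 and -0.72. Among 7775 bright genes of this comparison TXNIP ranked 174th from the lowest ratio. DDIT4 was at 4127 and 3011, a log2 ratio of -0.45 and rank 278, and PNRC1 at 1164 and 906, a log2 ratio of -0.36 and rank 458. TSC22D3 was dim, at 91.3 and 79.4, with a log2 ratio of -0.18.

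KLHL24 and CCNG2 lay above 0 in HepG2. KLHL24 had signals of 115 (control) and 160 (shRNA6), a log2 ratio of 0.44, while a probe set at 127 and 103 gave -0.27 and the cross-hybridising one -0.22. CCNG2 was at 721 and 908, a log2 ratio of 0.33, and its other kept probe sets gave -0.13, 0.12 and 2.07. The last of these rests on signals of 11.4 and 88.0. PIK3IP1 gave -0.87 at signals of 109 and 53.9 and was kept through the control array alone, and its other kept probe set gave 0.14. IRS2, at 44.7 and 22.2, and PDK4, at 2.75 and 2.48, were not kept.

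By size on the log2 scale with the pseudocount, 0 of 8 kept genes were at least 2-fold lower in HepG2, beside 2.56% of 12167 genes, and 0 were at least 2-fold higher, beside 2.65%, or 1.5-fold higher, beside 6.48%. At least 1.5-fold lower were 2 of 8, KLF9 and PIK3IP1, beside 6.16%. Without the pseudocount these 2 genes were at 49.6% and 49.4% of their control signal, just past 2-fold. In all 6 of 8 were below 0, beside 51.7%. Those 6 were KLF9, PNRC1, DDIT4, TXNIP, PIK3IP1 and TSC22D3. They were below 0 in all 3 human comparisons, beside 16.5% of 10403 genes. The HeyA8 part of that count was used in the choice, and TXNIP, PIK3IP1 and TSC22D3 were added with earlier results known. The members' median was -0.40 and that of all kept genes -0.0097.

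**Figure D2:**
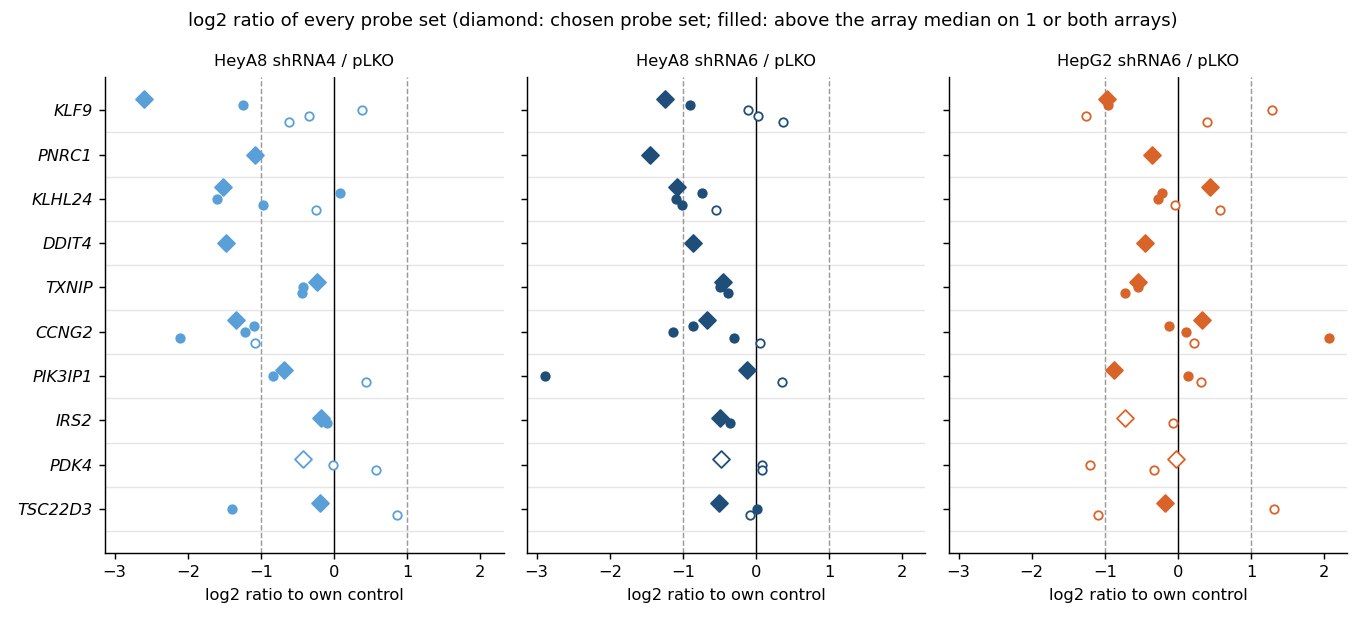
Log2 ratio to the own control (x axis) of every probe set of the 10 genes (y axis) in the 3 human comparisons, with diamonds for the probe set that represents a gene and open symbols for probe sets not above the array median on either array. Dashed lines mark 2-fold: the TXNIP probe sets lie close together below 0 in all panels, whereas those of KLHL24 and CCNG2 lie on both sides of 0 in HepG2.

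Mouse liver gave a further comparison outside the choice of KLF9, PNRC1, KLHL24 and DDIT4. It had a Fas knockout in tissue in place of a hairpin in a cell line. For the remaining genes it is not independent, since they were added with earlier results of these arrays known. Klf9 was at 18258 in the wild-type and 19589 in the knockout liver, a log2 ratio of 0.10, and 6 of its 7 probe sets gave ratios between 0.10 and 0.48, and the dimmest gave -0.22 at signals of 93.1 and 76.7. Pnrc1 was at 3559 and 3665 (0.042), with a dim probe set at 0.26, and Klhl24 at 1901 and 1892 (-0.0065). Ccng2 was at 1407 and 1418 (0.011), while its other probe set, at 238 and 341, gave 0.48. The sign of Klhl24 turned when arrays were scaled otherwise, and its other probe sets gave -0.055, -0.13, -0.34 and, for the cross-hybridising one, 0.19. Ddit4 was at 1086 and 1308, a log2 ratio of 0.26.

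Txnip was lower in the knockout liver, at 3025 against 4308, a log2 ratio of -0.51, and its other probe set gave -0.36. Pdk4, which is induced by fasting and by glucocorticoids in liver, was at 305 in the wild-type and 173 in the knockout liver, a log2 ratio of -0.74 from its single probe set. Irs2, also induced by fasting, was at 414 and 297, a log2 ratio of -0.45. Tsc22d3 was higher, at 3577 and 4982, a log2 ratio of 0.48, with other kept probe sets at 0.80 and 0.19. Pdk4 and Tsc22d3, both glucocorticoid-inducible, thus lay on opposite sides of 0 in this pair of samples. Pik3ip1 was at 71.3 and 56.6 and was not kept.

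By size, 0 of 9 kept genes were at least 2-fold lower in the knockout liver, beside 2.57% of 12047 genes, and 0 were at least 2-fold higher, beside 1.77%, or 1.5-fold higher, beside 4.89%. At least 1.5-fold lower was 1 of 9, Pdk4, beside 7.63%, and 4 of 9 were below 0, beside 52.7%. The members' median was 0.011 and that of all kept genes -0.016. Of the 7 genes kept in all 4 comparisons only TXNIP was below 0 in each, beside 8.97% of 7739 genes with a symbol in both tables. All 3 human and both mouse TXNIP probe sets were below 0 in every comparison they entered.

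**Figure D3:**
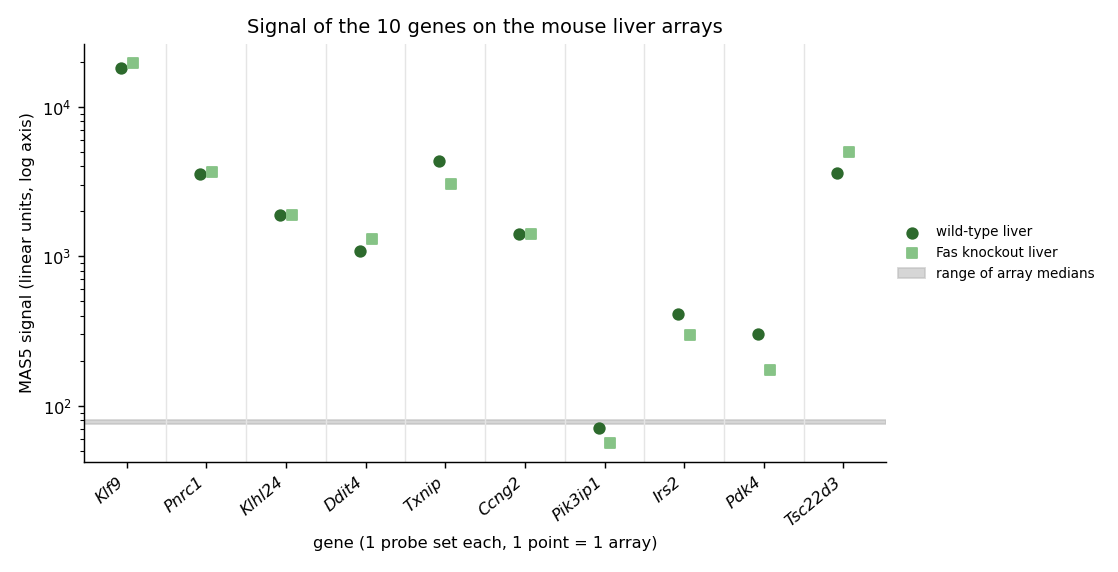
MAS5 signal (log axis) of the 10 genes on the 2 mouse liver arrays, 1 point an array, with the grey band spanning the array medians. Txnip, Irs2 and Pdk4 are lower and Ddit4 and Tsc22d3 higher in the knockout liver, and the most intense probe sets of Klf9, Pnrc1, Klhl24 and Ccng2 are close together.

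Whole liver holds several cell types, and fewer cells of a type cannot be told apart from less RNA per cell. The summed signal of 11 leukocyte markers was 8853 in the wild-type and 7220 in the knockout liver, with 7 of 11 above the median in each, and of the T cell genes Cd3e and Cd4 were below the median in both and Cd8a above it in both, at 104 and 88.7. The 6 endothelial and stellate markers summed to 5012 and 4004, with 5 and 6 above the median, and the 6 hepatocyte markers to 199626 and 200483. Their part in the ratios of Txnip, Pdk4, Irs2 and Tsc22d3 was not tested. The sources used here do not give the hour of collection or the feeding state.

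The cell lines were compared over all 5 human arrays with a limma fit that held terms for the line and for knockdown. The hairpin arrays whose low values chose KLF9, PNRC1, KLHL24 and DDIT4 are on the HeyA8 side of this difference, so these 4 genes are described with no test. For the other genes p-values were adjusted by Benjamini-Hochberg over 13936 genes. They measure the spread between these samples, which are not replicate cultures. Of the 5 other genes in the fit TXNIP, TSC22D3 and IRS2 passed, 3 of 5, beside 58% of all genes (30% higher in HepG2 and 28% higher in HeyA8), a share near that of all genes. The pass of IRS2 is not read as a result, since the filter kept it through HeyA8 alone.

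TXNIP was higher in HepG2, at 1870 and 2742 against 870 to 1200, a log2 difference of HepG2 minus HeyA8 of 1.07 ± 0.12 (SE, 2 and 3 arrays; limma adjusted p = 0.000148). TSC22D3 was higher in HeyA8, at 302 to 433 against 79.4 and 91.3, a difference of -2.0 ± 0.22 (SE; limma adjusted p = 0.000116). The arrays of the lines did not overlap for either gene. IRS2 was above the array median in HeyA8 alone and entered the fit through those arrays. Its signals were 2384, 2114 and 1691 there and 44.7 and 22.2 in HepG2, geometric means of 2043 and 31.5. With the HepG2 side set to the array medians IRS2 was at least 33.5-fold higher in HeyA8. Because the filter kept IRS2 through the HeyA8 arrays alone, the direction was fixed in advance, and no p is given for it. Its paralog IRS1 was at 708 to 736 in HeyA8 and at 1398 and 1250 in HepG2.

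CCNG2 gave -0.65 ± 0.31 (SE; limma adjusted p = 0.106) and passed in 3 of 15 alternative runs. Without HeyA8 shRNA4 it was at -0.91 (limma adjusted p = 0.0119). It was at -1.41 without HepG2 shRNA6, a fit with 1 HepG2 array, and at -0.076 without either control array. PIK3IP1 gave -0.013 ± 0.37 (SE; limma adjusted p = 0.978). PDK4 was below the filter in both lines and was not tested.

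Among the 4 choosing genes DDIT4 was at 3011 and 4127 in HepG2 and at 587 to 1665 in HeyA8, with no overlap and a fitted difference of 1.71 ± 0.22 (SE). KLHL24 did not overlap either, at 202 to 601 in HeyA8 against 115 and 160, with a difference of -1.28 ± 0.38 (SE) that was -0.53 without either control array and -2.27 without HepG2 shRNA6. KLF9 overlapped, with HepG2 shRNA6 at 193 below the HeyA8 control at 218. Its difference was 1.34 ± 0.44 (SE), and it was 0.80 without HepG2 shRNA6 and 0.45 as a mean over probe sets. PNRC1 gave -0.18 ± 0.22 (SE), and its sign turned without either control array.

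**Figure D4:**
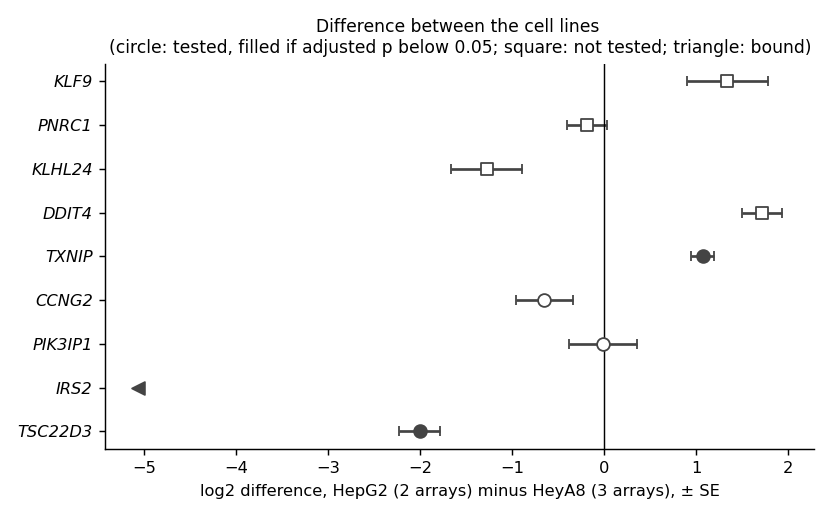
Log2 difference of HepG2 (2 arrays) minus HeyA8 (3 arrays), with its SE, for the 9 genes in the limma fit: circles were tested and are filled where the adjusted p was below 0.05, squares are the 4 choosing genes, not tested, and the triangle is the bound for IRS2, whose difference is at least 33.5-fold. TSC22D3 lies to the HeyA8 side at -2.0 and TXNIP to the HepG2 side at 1.07.

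Relatives of the 10 genes were set beside them in the same comparisons, given here in the order HeyA8 shRNA4, HeyA8 shRNA6, HepG2 and mouse liver. Of the Krüppel-like factors, KLF13, the close relative of KLF9, had log2 ratios of -0.078, -0.34, -0.19 and -0.015, so with either hairpin it lay closer to 0 than KLF9. KLF10 gave 0.20, -0.11, -0.30 and 0.30, KLF11 -0.32, -0.11, 0.16 and -0.056, and KLF16 0.56, 0.45, -0.077 and -0.091. KLF15, a fasting-induced factor of liver, was at 0.90 with shRNA4 from a dim control signal of 47.2, 0.55 in HepG2 and 0.39 in mouse liver. PNRC2, the paralog of PNRC1, was at -0.24, 0.15, -0.085 and -0.053. The mouse signs of KLF13, KLF11 and PNRC2 turned under another scaling.

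Of the arrestin relatives of TXNIP, ARRDC3 had a HeyA8 control signal of 634 and hairpin signals of 276 (shRNA4) and 395 (shRNA6), giving -1.16 and -0.66, but gave 0.39 in HepG2 and 0.50 in mouse liver, where TXNIP was lower. ARRDC4, which like TXNIP is induced by glucose through MondoA and ChREBP, was not kept in HeyA8 and gave -0.26 in HepG2 and -0.49 in mouse liver. CCNG1, a target of the tumour suppressor protein p53, gave 0.13, -0.22, -0.28 and 0.18. Of the other pyruvate dehydrogenase kinases, Pdk1 was lower in the knockout liver, at 2497 against 4403 (-0.81), beside -0.037, -0.29 and -0.18 in the human comparisons. PDK2 gave 0.064, -0.28, 0.060 and 0.045, and PDK3 0.21, -0.26 and -0.074 in the human comparisons. IRS1 gave -0.054, -0.017, -0.16 and -0.23. TSC22D1 gave -0.36, -0.66, 0.054 and -0.23 and TSC22D2 -0.044, -0.19, -0.058 and -0.41, so in mouse liver both lay on the other side of 0 from Tsc22d3. TSC22D4 was kept in mouse liver alone, at -0.22. DDIT4L, the paralog of DDIT4, was at 0.43 and -0.0061 in HeyA8 and -0.19 in mouse liver, and it was not kept in HepG2. Signs turned under another scaling for DDIT4L and IRS1 with shRNA6 and for PDK2 and TSC22D1 in HepG2.

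The wider pathway was followed in 6 lists of genes that are not among the 10. The lists share some genes, such as SESN3, CDKN1C and SGK1, and the relatives above are in some of them. The lists were chosen with earlier results of these data known. Of all kept genes 46.6% (shRNA4), 48.8% (shRNA6), 51.7% (HepG2) and 52.7% (mouse liver) were below 0, the shares that belong beside the list counts. In the limma fit of the knockdown effect common to both lines, 0 of 102 listed genes passed in either direction, and 10 had an unadjusted p below 0.05. Of all 13936 genes 0 passed, a share of 0%, and 568 had an unadjusted p below 0.05. The listed genes with the smallest unadjusted p were HBP1, a repressor of cell cycle genes (common log2 effect -0.56 ± 0.15, SE, 5 arrays; limma adjusted p = 0.991), and ZFP36L1, which promotes decay of short-lived messages (-0.29 ± 0.086, SE; limma adjusted p = 0.991).

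Growth-arrest and quiescence genes had the lowest list medians in HeyA8. With shRNA4 13 of 16 kept genes were below 0, beside 46.6% of all genes, with a median of -0.39. With shRNA6 13 of 16 were, beside 48.8%, with a median of -0.26. The medians of all genes were 0.026 and 0.0071. SESN3, a stress-induced sestrin, had a control signal of 189 and hairpin signals of 58.8 and 120 (-1.50 and -0.61). YPEL3, linked to senescence, was at 247, 92.2 and 158 (-1.31 and -0.60). TOB1, an antiproliferative adaptor of message deadenylation, and RBL2, the retinoblastoma relative of quiescent cells, gave -0.66 and -0.60 with shRNA4, and HBP1 gave -0.68 with shRNA6. In HepG2 11 of 16 were below 0 with a median of -0.064, and in mouse liver 15 of 19 with a median of -0.13. The values in HepG2 included HBP1 at -0.48 and YPEL3 at 0.51. The antiproliferative gene Btg2 was at 2659 in the wild-type and 1380 in the knockout liver (-0.94).

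Other known FOXO targets also had medians below those of all genes, -0.21 (shRNA4), -0.19 (shRNA6), -0.088 (HepG2) and -0.13 (mouse liver), with 14 of 22, 16 of 23, 17 of 24 and 22 of 26 kept genes below 0. At equal array medians this list was at -0.11 with shRNA6, -0.20 in HepG2 and -0.043 in mouse liver, where 17 of 26 were below 0. The growth-arrest list was then at -0.18 in HepG2 and -0.049 in mouse liver. Less the median over all genes, the mouse FOXO targets were at -0.11 and the mouse growth-arrest genes at -0.12, as deposited and at equal medians. After quantile normalization they were at -0.14 and -0.17. On the same measure the lists were at -0.079 and -0.055 in HepG2 at equal medians. CREBRF, a regulator of the unfolded protein response, was at 678 in the HeyA8 control, 365 with shRNA4 and 351 with shRNA6 (-0.87 and -0.92). IGFBP1, a secreted carrier of insulin-like growth factors and a classical FOXO target, was higher in HeyA8, at 637, 1225 and 1341 (0.93 and 1.06), opposite in sign to KLF9 and CCNG2. PCK1, a gluconeogenic FOXO target, was at 13.5 and 138 in HepG2 (2.53). In mouse liver Bcl6, which encodes a transcriptional repressor, was at 778 and 424 (-0.85), and Bcl2l11, which encodes the death effector BIM, at 831 and 473 (-0.79).

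The FOXO genes and the kinases upstream of them had medians near those of all genes in the human comparisons, 0.064, -0.033 and -0.048, and -0.15 in mouse liver. FOXO1 was at 503 in the HeyA8 control, 517 with shRNA4 and 353 with shRNA6 (0.038 and -0.50). FOXO3 was at 1990, 2120 and 1590 in the same order (0.091 and -0.32). In HepG2 FOXO1 gave -0.18 and FOXO3 0.015. FOXO4, dim throughout, was higher with shRNA4 (38.5 and 82.1, 0.89) and in HepG2 (23.3 and 86.3, 1.46). FOXO6 gave -0.37 with shRNA4, 0.0055 with shRNA6 and, at 69.9 and 30.8, -0.93 in HepG2. The shRNA6 median turned to 0.042 with arrays scaled to equal medians. The receptor IGF1R was at 1072 in the HeyA8 control and 644 with shRNA6 (-0.72), and Igf1r at 171 and 64.6 in mouse liver (-1.17). SGK1, a kinase that phosphorylates FOXO proteins and is induced by glucocorticoids, was at 2617 in the HepG2 control and 1264 with shRNA6 (-1.04), and at 3586 and 2680 in mouse liver (-0.42).

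The direction of the glucocorticoid list differed between comparisons. With shRNA4 5 of 15 kept genes were below 0, with a median of 0.20 that was 0.10 after quantile normalization, and with shRNA6 8 of 14, with a median of -0.0049 that turned above 0 under both other scalings. HSD11B1, which regenerates active glucocorticoid inside cells, was at 533 in the HeyA8 control and 296 with shRNA4 (-0.82) but at 530 with shRNA6 (-0.0077). CDKN1C, a cell cycle inhibitor, was at 426, 294 and 203 in HeyA8 (-0.52 and -1.02). In HepG2 9 of 13 were below 0 with a median of -0.085, including DUSP1, a phosphatase of stress kinases (-0.71). In mouse liver 10 of 19 were below 0 with a median of -0.029, which was 0.059 with arrays scaled to equal medians. Glul, glutamine synthetase, was at 11015 and 16122 there (0.55).

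Proliferation genes had medians of 0.033 (shRNA4), 0.088 (shRNA6), -0.053 (HepG2) and 0.022 (mouse liver), with 9 of 18, 5 of 18, 14 of 18 and 6 of 14 below 0. The shRNA4 median was -0.015 after quantile normalization. With shRNA6 the median was 0.028 after quantile normalization and 0.16, with 1 of 18 below 0, at equal array medians. CCNE1 and CCNE2, the cyclins of entry into DNA synthesis, were at 0.28 and 0.34 with shRNA4 and 0.62 and 0.33 with shRNA6. No kept gene of this list was 2-fold apart in a human comparison. Partners of the 10 genes, such as thioredoxin and the subunits of the mTOR complex, had medians of 0.058, -0.0010, 0.00081 and 0.015. The first stayed above 0 under the other scalings and the other 3 changed sign. MTOR itself was at 417, 314 and 246 in HeyA8 (-0.39 and -0.73), and MLXIPL, the glucose-sensing factor ChREBP, at 213 and 423 in HepG2 (0.95).

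**Figure D5:**
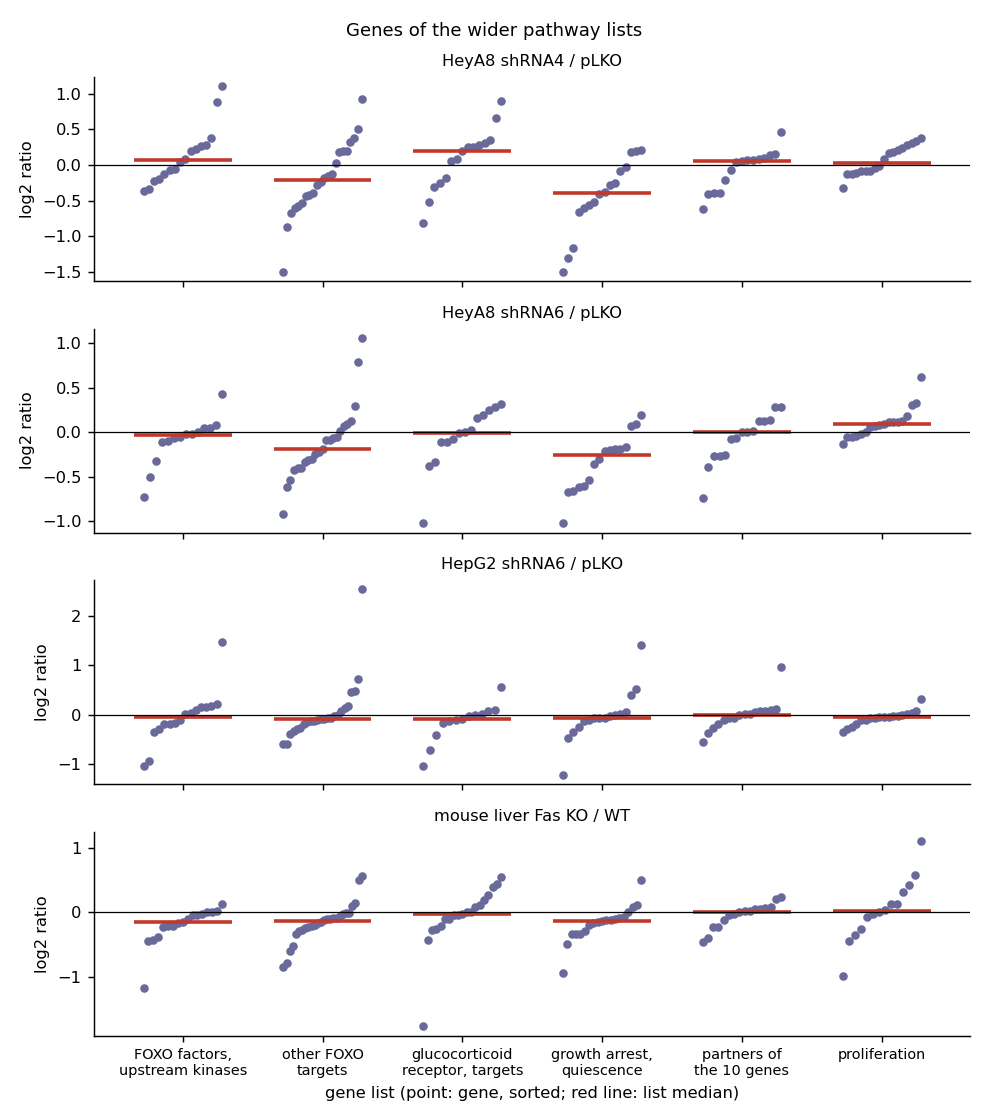
Log2 ratio to the own control (y axis) of the kept genes in 6 pathway lists (x axis), 1 panel for each comparison, with points sorted within a list and red lines at the list medians. The growth-arrest list has its lowest medians in HeyA8, -0.39 and -0.26, while the glucocorticoid list lies at 0.20 with shRNA4.

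Genes with the most similar pattern were found among 8921 bright genes by the root mean square difference of the 3 human log2 ratios, which share a HeyA8 control. Closest to KLF9 were the immediate-early genes EGR1 (difference 0.28, at -2.94, -1.54 and -0.82) and FOS (0.29, at -2.44, -1.42 and -1.41), followed by CEACAM1 at 0.63, IL18 at 0.70 and RAB42 at 0.71. Closest to the mean of KLF9, PNRC1, KLHL24 and DDIT4, which was -1.67, -1.16 and -0.33, were CEACAM1 (0.092), ITPKA (0.16), HEY1 (0.18), HSD11B1-AS1 (0.30) and APOH (0.32). Of these CEACAM1, ITPKA and APOH were below the HeyA8 control median with signals of 34.4, 43.2 and 39.1, and were bright through HepG2 alone. RAB42, at 86.7, 9.15 and 14.6 in HeyA8, was also bright through HepG2 alone. HSD11B1-AS1 was below the array medians in HepG2, at 6.06 and 5.42. HEY1, a repressor induced by Notch, was bright in HeyA8, at 2139, 821 and 899.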

How the data were processed

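Gene expression was measured on 5 human and 2 mouse Affymetrix arrays. The deposited table values are linear intensity signals. Per the submitters' processing notes the authors used MAS5, whose version was not given in the sources used here. Every array had been scaled to a 2% trimmed mean near 500.1 in human and 500.0 in mouse. Analyses omitted 62 human and 64 mouse control probe sets. Symbols were read from GEO's platform annotation, where 41091 human and 34945 mouse probe sets had 1 symbol, 1801 and 932 several and 11721 and 9160 none, the last 2 kinds being unnamed here. By gene identifier 41037 human probe sets matched RefSeq, with 0 symbols changed. Each gene was represented by the probe set brightest on average, with _x_at probe sets used only where there was no other. Ratios are log2(signal + c), where c is the 25th percentile of a table. Single comparisons have 1 array a group and were not tested.

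The line and knockdown effects were fitted to 5 arrays with limma 3.58.1 in R 4.3.3 (trended prior, 2 residual degrees of freedom, Benjamini-Hochberg adjustment over all genes), tested on simulated data. The line difference of the 4 choosing genes was planned as a test and is given without one, since their HeyA8 arrays entered the choice. Python 3.11.15 did the rest. Always named were the 10 genes, FAS and listed paralogs, and from each list up to 5 genes a comparison could be named, by size of ratio. The 5 bright genes most alike to KLF9 and to the mean of the 4 choosing genes were also named. Members and lists were chosen with earlier results of these data known. Alternatives were other pseudocounts, scalings, filters and probe set rules, a 1.5-fold size, other terms in the fit and leaving out each array.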

Additional observations from a re-analysis of the deposited data

Results flagged for a closer look

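In 2 genes the HepG2 array lay on the opposite side of its control from both HeyA8 hairpin arrays. KLHL24 had a log2 ratio of 0.44 in HepG2 against -1.52 and -1.08 in HeyA8, and CCNG2 0.33 against -1.34 and -0.68. The difference was not tested, since the HeyA8 values chose the set and HepG2 has 1 array a group. Other kept probe sets gave HepG2 ratios of -0.27 and -0.22 for KLHL24 and of -0.13, 0.12 and 2.07 for CCNG2.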

How the results depend on the processing

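Of 271 recomputed member ratios 259 moved by less than the SD between the hairpin arrays and 12 by more. The 259 include reruns that could not move a ratio, namely other filters, and other probe set rules for genes with 1 probe set. This count is therefore no measure of robustness. Of the 12, 2 changed sign: with _x_at probe sets allowed KLHL24 was at 0.077 with shRNA4 and -0.22 in HepG2. Small ratios changed sign in 3 more: TSC22D3 in HepG2, at 0.017 as a mean over probe sets, and mouse Klhl24 under both other scalings, and scaling to equal medians took the HepG2 median over all genes from -0.0097 to -0.12. The number of genes at least 2-fold lower with shRNA4 was 3 as a mean over probe sets. With shRNA6 it was 1 as a mean over probe sets, 1 with a pseudocount of 100 and 5 at 1.5-fold. In HepG2 it was 1 with equal medians, KLF9, and 2 at 1.5-fold, and in mouse liver 1 at 1.5-fold. Of the 5 tested genes 3 or 4 differed between the cell lines when 1 array was left out. The PNRC1 line difference then ranged from -0.70 to 0.21 and PIK3IP1 from -0.21 to 0.25. PIK3IP1 was also at 0.0021 with a pseudocount of 100, 0.0070 as a mean over probe sets and 0.088 with no knockdown term. Listed genes with a common knockdown effect stayed at 0 in every alternative run. The causes were not tested. No paired analysis was possible because each group has 1 array and replicate numbers pair nothing; cell line is a term of the limma fit.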

Other observations

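Some listed genes outside the comparisons above also lay far from their control. In mouse liver Crispld2, a secreted protein induced by glucocorticoids, was at 107 in the wild-type and 17.2 in the knockout sample (log2 ratio -1.76), the latter below the array median. The proliferation marker Mki67 was at 41.7 and 113 there (1.10), while the cyclin gene Ccne1 was at 296 and 139 (-0.99). In HepG2 the FOXO target CAT, the peroxide-degrading catalase, was at 6399 in the control and 10484 with shRNA6 (0.71), and CDKN1A, the cell cycle inhibitor p21, at 1901 and 1262 (-0.59). RICTOR, a subunit of mTOR complex 2, was at 2133 in the HeyA8 control and 1330 with shRNA4 (-0.68). With 1 array a group none of these differences has a replicate check.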
